A study of Mus musculus with 6 samples.

Results

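A set of 10 fast muscle fiber genes was followed in RNA-seq libraries of CD144-enriched cells from mouse hind limb muscle. They were Acta1, Tnnt3, Tnnc2, Tnni2, Myh1, Myh4, Mylpf, Myl1, Ttn and Ckm. The rule names these 10 genes and sets no threshold on their values, and they were found by Ensembl identifier among the 47729 genes counted, of which they make up 0.0210%. The cells were enriched with beads against CD144, the endothelial adhesion protein VE-cadherin, so fiber genes were read here as a possible sign of muscle RNA carried into the enriched fraction. Where the reads of these genes came from was not tested.

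All mice were on a high-fat, high-sucrose diet and underwent hind limb ischemia (HLI) surgery on day 0. The labels place intramuscular adenovirus on days 1 and 4, while the methods of the study put the last dose on a later day. Muscle was harvested 1 week after HLI. The WT + GFP group was wild-type mice given Ad-GFP, the control virus. The KO + GFP group was Leene-KO mice, which lack the region syntenic to human LEENE, given the same virus, and the KO + LEENE group was Leene-KO mice given Ad-LEENE, which carries GFP-tagged human LEENE. Each group had 2 libraries. The study's methods describe collagenase digestion of gastrocnemius muscle and a deletion made with CRISPR/Cas9 in fertilized embryos, not in a chosen cell type. The sex and age of the mice behind a library are not given in the labels, and the Leene transcript and GFP were not analysed here.

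In a muscle fiber, myosin motors of the thick filament pull on actin of the thin filament. Calcium releases this interaction by binding to troponin, a complex of a calcium-binding, an inhibitory and a tropomyosin-binding subunit. Fast fibers use their own isoforms of myosin heavy chain, myosin light chain and troponin, titin spans the sarcomere as a spring, and muscle creatine kinase resupplies ATP. These transcripts are among the most abundant in mature skeletal muscle, and endothelial cells are not known for them.

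The libraries held between 1770992 and 5602603 reads assigned to genes, with the smallest totals in KO + LEENE. A floor of 3 reads was set as the least a library can show, which corresponds to 0.535 to 1.69 CPM (counts scaled to the same library total). Both libraries of a group carried the same facility sample number and differed by 1.18 to 1.22 times counting noise, against 56.6 to 93.4 times between groups. Nothing in the labels ties them to different animals, so the P values below measure the spread between libraries, which may be technical. Cdh5, the gene for CD144, had 332 and 283 reads in the WT + GFP libraries, 322 and 196 in the KO + GFP libraries and 5 and 18 in the KO + LEENE libraries. Not all endothelial markers followed it. Pecam1 had a mean of 44.5, 24.8 and 57.5 CPM in the 3 groups and was not called between KO + LEENE and either other group, and Vwf was highest in KO + LEENE (317 and 340 reads, against 53 to 158). Gapdh and Ldha, glycolytic genes that most cells use, were close to absent in all 6 libraries, with 1 to 9 and 0 to 3 reads. Why such genes are so low could not be settled from the files, and a fault in the identifiers or the counting was not tested, so every count below is given as the files assign it to a gene.

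Beside Ttn, each group had a different fast fiber gene above the floor. Of the 10 genes, 5 had at most 3 reads in each of the 6 libraries (Tnnt3, Tnnc2, Tnni2, Mylpf and Ckm). This is 50% of them, a smaller share than the 68.4% of all genes. Only Ttn exceeded the floor in both libraries of all 3 groups. Acta1 did so only in KO + LEENE, Myh1 only in WT + GFP and Myh4 only in KO + GFP. Myl1 passed the floor in a single library, with 4 reads. Among all genes above the floor in both libraries of at least 1 group, 46% were so in 1 group, 23.2% in 2 groups and 30.8% in 3 groups, so being above the floor in 1 group was also common outside the fast fiber genes.

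**Figure D1:**
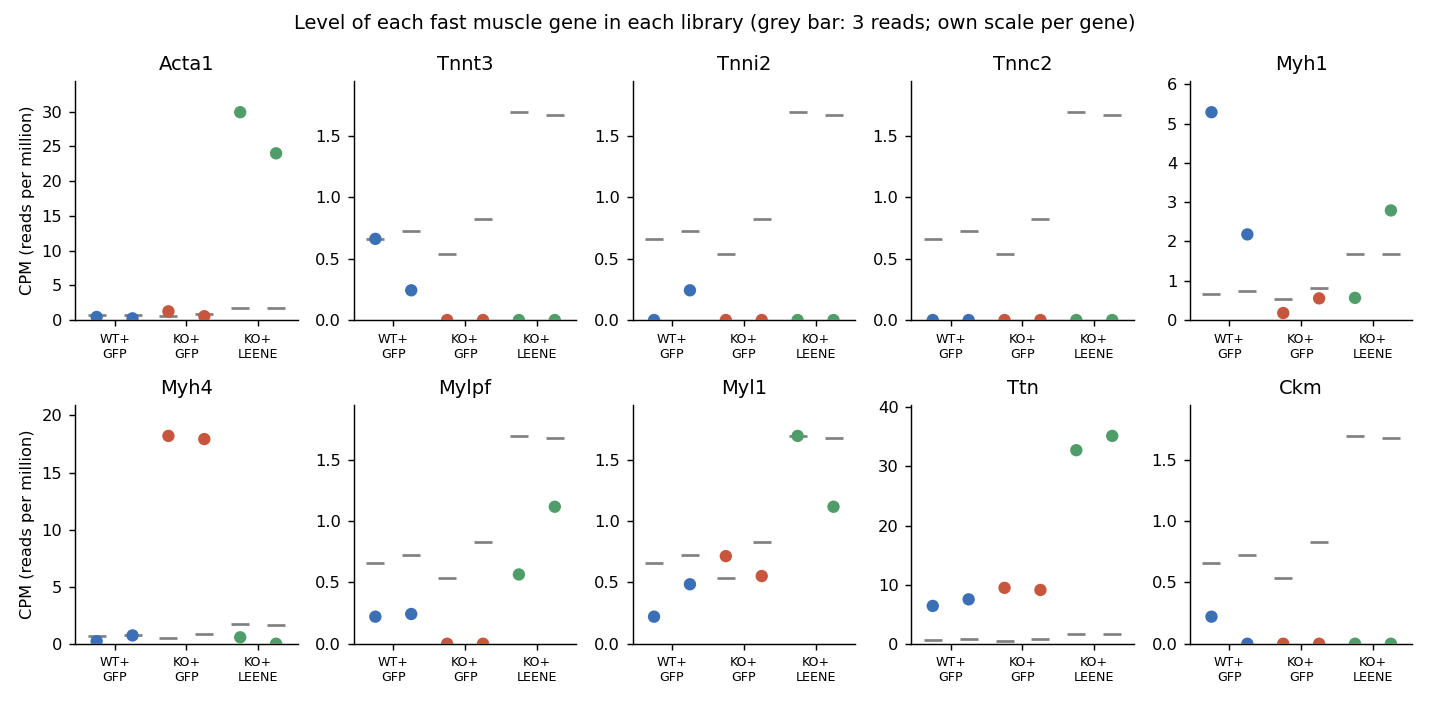
Each panel plots the level of 1 fast fiber gene in CPM, on its own linear scale, with 1 point per library (blue, WT + GFP; red, KO + GFP; green, KO + LEENE), and grey bars mark 3 reads in that library. Acta1 stands out in KO + LEENE (29.9 and 24 CPM) and Myh4 in KO + GFP (18.2 and 17.9 CPM), whereas for Myh1 the second WT + GFP library (2.18 CPM) lies below the second KO + LEENE library (2.79 CPM), and 5 genes lie at or under the bars throughout.

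Summed over the 10 genes, the libraries held 62 and 49 reads in the WT + GFP libraries, 167 and 104 in the KO + GFP libraries and 117 and 115 in the KO + LEENE libraries. In percent of all assigned reads this was 0.00128, 0.00292 and 0.00651 on average. On library totals the summed level was 12.8 ± 1.27 CPM (SD, n = 2) for WT + GFP, 29.2 ± 0.793 for KO + GFP and 65.1 ± 1.32 for KO + LEENE, and the groups did not overlap. The 95% Wilson intervals of the libraries, which cover counting error only, ran from 8.98 to 17.5 CPM in WT + GFP, 23.7 to 34.8 in KO + GFP and 53.5 to 79.2 in KO + LEENE. No test was made, since 2 libraries a group cannot give an exact two-sided permutation P value under 0.33.

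The order of the last 2 groups depended on the scaling. TMM scaling, which sets libraries level on the bulk of their genes, gave 13.4 ± 1.30 CPM for WT + GFP, 42.9 ± 3.52 for KO + GFP and 43.2 ± 0.942 for KO + LEENE. The KO + LEENE and KO + GFP libraries then overlapped, while WT + GFP remained lowest. With mitochondrially encoded genes, which took 33.6% to 50.9% of reads, left out of the total, the means were 25.8, 44.5 and 98.2 CPM. In bulk RNA, fewer cells of a type and less RNA per cell cannot be told apart.

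**Figure D2:**
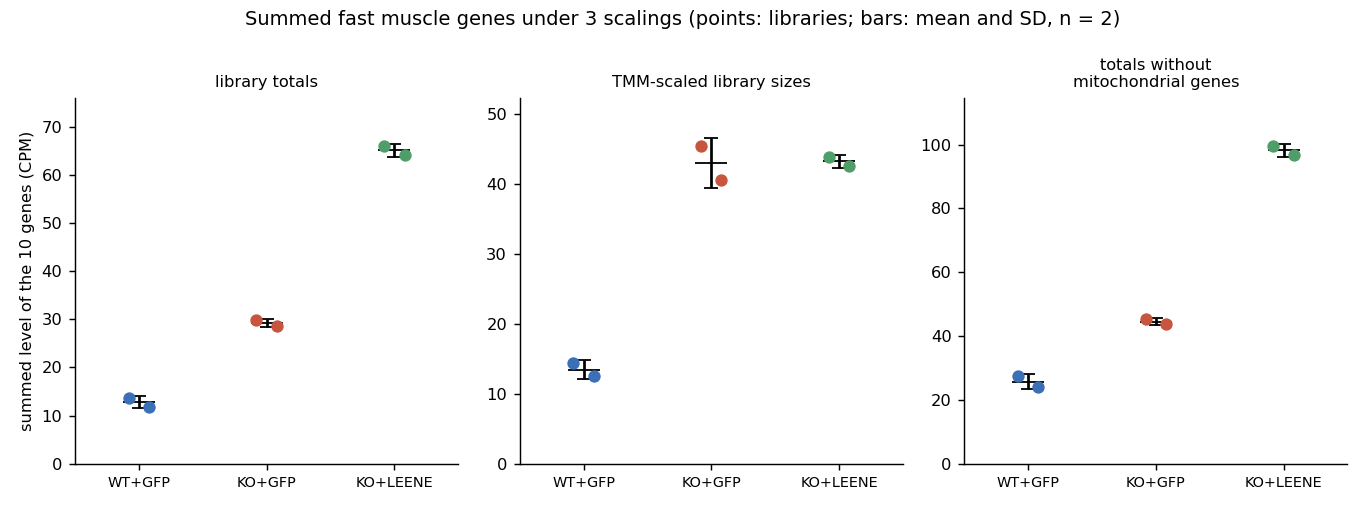
The summed level of the 10 fast fiber genes in CPM is plotted per library (points) with the group mean and SD (bars, n = 2) on library totals, on TMM-scaled library sizes and on totals without mitochondrial genes. KO + LEENE is highest on library totals (65.1 CPM) and without mitochondrial genes (98.2 CPM), but level with KO + GFP under TMM (43.2 and 42.9 CPM).

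The same sum was made of different genes in each group. Pooled over the libraries of a group, Ttn gave 54.1% of the reads for WT + GFP, 31.7% for KO + GFP and 52.2% for KO + LEENE. With Ttn left out, 64.7% of the remaining reads were from Myh1 in WT + GFP, 90.3% were from Myh4 in KO + GFP, and 86.5% were from Acta1 in KO + LEENE. The libraries of a group had the same leading gene beside Ttn in all 3 groups.

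**Figure D3:**
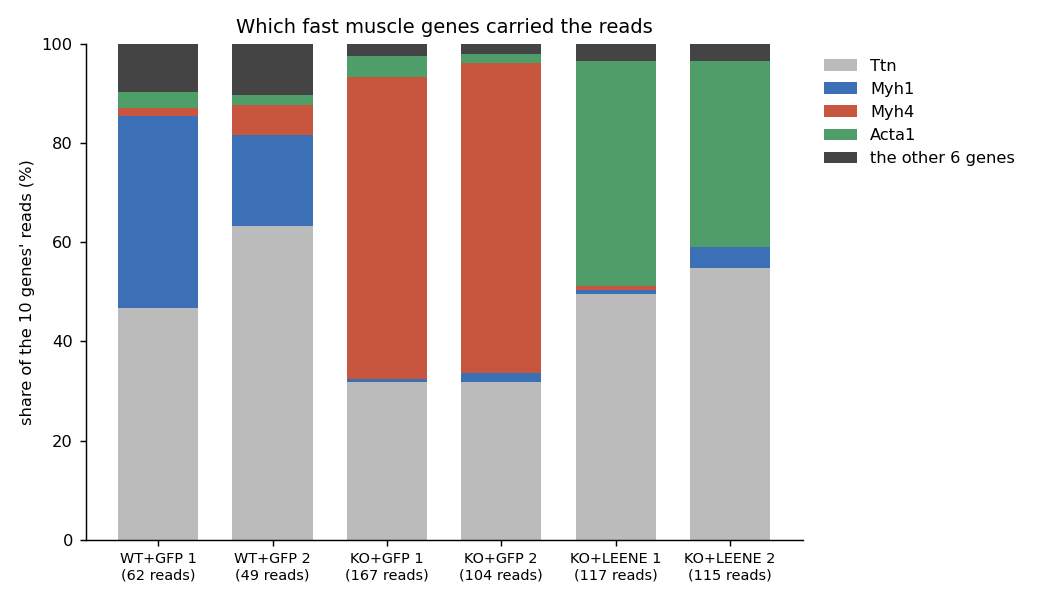
Stacked bars give the share of the 10 genes' reads (percent) that came from Ttn, Myh1, Myh4, Acta1 and the other 6 genes together in each library, with its summed reads under the bar. Beside Ttn, Myh1 leads in WT + GFP, Myh4 takes 61.1% and 62.5% in the KO + GFP libraries, and Acta1 takes 45.3% and 37.4% in the KO + LEENE libraries.

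The filter on low counts was passed by 4 of the genes (Acta1, Myh1, Myh4 and Ttn), which were tested. Between KO + GFP and WT + GFP, 3 of the 4 were called (2 higher, 1 lower), where 70.1% of the 8903 genes tested were called. In KO + LEENE against KO + GFP, 3 of the 4 were called (2 higher, 1 lower), against 67.8% of all. In KO + LEENE against WT + GFP, 3 of the 4 were called as well (2 higher, 1 lower), against 70.7% of all. The shares were near the background. Acta1 passed the filter through KO + LEENE alone and Myh4 through KO + GFP alone, so both had to differ between groups once they had passed, and the counts and medians are a description only. The median log2 fold change of the 4 genes was 1.39, 0.93 and 0.20 in these contrasts, beside -0.09, -0.01 and -0.11 over all genes. With fold changes against groups at or under the floor set to their lower bound, it was 0.89 and 0.44 in the first 2 contrasts and 1.62 over 3 genes in the last. Regardless of direction, the median change of all genes had a size of 2.09, 2.18 and 2.12 on the log2 scale.

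The myosin heavy chains were examined first. Myh1 encodes the type IIx heavy chain and Myh4 the type IIb heavy chain, the motor of the fastest fibers of the mouse. They are neighbors on chromosome 11 (GRCm38, plus strand): Myh1 (ENSMUSG00000056328) at 67200052 to 67224575 with 40 exonic blocks, and Myh4 (ENSMUSG00000057003) at 67238029 to 67260446 with 39. The coding sequences, of 5829 and 5820 bases, shared 5250 identical bases in an alignment (90.1% of the longer sequence). Since the reads of a 3′ kit are expected near the end of a transcript, the last 60 coding bases are shown with the 5 positions that differ in capitals.

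Myh1: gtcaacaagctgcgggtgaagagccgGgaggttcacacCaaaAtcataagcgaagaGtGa
Myh4: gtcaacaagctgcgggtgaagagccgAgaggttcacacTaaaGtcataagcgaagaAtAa

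Of the 50-base windows of the Myh1 transcript, 29.9% were also found in another gene, against 19.1% for Myh4. In the last 500 bases this was 0.443% and 7.54%, and no 100-base window there was shared by either gene. In addition, 51.8% of the last 500 exonic bases of Myh1 lie in Myhas, a noncoding gene at the same locus, and reads over both genes were not assigned to either.

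Myh4 was above the floor only in KO + GFP. It had 102 and 65 reads in the KO + GFP libraries, 1 and 3 in the WT + GFP libraries and 1 and 0 in the KO + LEENE libraries. Both KO + GFP libraries were high, the other 4 were at or under the floor, with no overlap. Against the floor of 3 reads per library, on TMM-scaled totals, Myh4 in KO + GFP was higher than in WT + GFP by at least 36.3-fold (adjusted P = 1.04e-39, edgeR). In KO + LEENE it was lower than in KO + GFP by at least 23.7-fold (adjusted P = 9.70e-33, edgeR). The fitted log2 fold change of the latter was -6.90, and -5.84 with library size only, so the size depended on the scaling. Since Myh4 entered the test through the KO + GFP libraries alone, these P values do not bear on its being higher there independently of the filter. Between KO + LEENE and WT + GFP no fold is given, since both were at the floor.

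Myh1 was highest in WT + GFP, at lower counts. It had 24 and 9 reads in the WT + GFP libraries, 1 and 2 in the KO + GFP libraries and 1 and 5 in the KO + LEENE libraries. The WT + GFP libraries had the most reads. In CPM the second of them (2.18) lay below the second KO + LEENE library (2.79), so these groups overlapped. In KO + GFP, Myh1 was lower than in WT + GFP by at least 3.97-fold (adjusted P = 5.83e-05, edgeR). The fitted log2 fold change, which depends on the prior count where a group is at the floor, was -2.96, and the call did not hold with DESeq2 (-3.02, adjusted P = 0.0713), without the first WT + GFP library (-2.19, adjusted P = 0.0647, edgeR) or without the first KO + GFP library (-2.29, adjusted P = 0.0525, edgeR). In KO + LEENE it was lower than in WT + GFP by a log2 fold change of -1.81 ± 0.613 (SE, adjusted P = 0.00520, edgeR). This call was lost with library size only (-1.16, adjusted P = 0.0921, edgeR) and with DESeq2 (-1.77, adjusted P = 0.276). The estimate shrank to -1.04 without the first WT + GFP library and to -1.05 without the first KO + LEENE library. Without the second KO + LEENE library, KO + LEENE was under the floor and the fitted value was -3.24. The difference between KO + LEENE and KO + GFP was not called (adjusted P = 0.324, edgeR), but passed with library size only (adjusted P = 0.0360, edgeR). The ratio of KO + LEENE to the floor was 1.12 and takes no account of counting error, so it sets no minimum difference. Without the second KO + LEENE library both groups were at the floor. The 24 and 9 reads of the WT + GFP pair were themselves uneven for their totals (exact two-sided binomial P = 0.0226, adjusted P = 0.451 over 20 such pairs).

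Acta1, the skeletal alpha-actin of the thin filament, was highest in KO + LEENE. Acta1 (ENSMUSG00000031972) lies on chromosome 8 at 123891767 to 123894736 (GRCm38, minus strand), overlaps no other gene, and shared 1.94% of its 50-base windows with others, among them Actb, and none in its last 500 bases. It had 2 and 1 reads in the WT + GFP libraries, 7 and 2 in the KO + GFP libraries and 53 and 43 in the KO + LEENE libraries. Both KO + LEENE libraries were far above the other 4, with no overlap, although they had the lowest totals. The log2 fold change in KO + LEENE against KO + GFP was 3.60 ± 0.409 (SE, adjusted P = 1.65e-17, edgeR), or 12.1-fold, and compared with WT + GFP the KO + LEENE level was higher by at least 24.5-fold (adjusted P = 1.25e-26, edgeR). As with Myh4, the filter admitted Acta1 through its high group alone, so these P values are not independent of that choice. The log2 fold change against KO + GFP was 4.75 with library size only. Without the first KO + GFP library it was a fitted 4.43, since KO + GFP was then under the floor. In KO + GFP against WT + GFP, Acta1 was not called (adjusted P = 0.0546, edgeR), and the 7 reads of the first KO + GFP library were the only ones above the floor. The ratio of KO + GFP to the floor was 1.83 and takes no account of counting error, so it sets no minimum difference. The contrast passed with mitochondrial genes left out (0.0484), without the second KO + GFP library (0.0301) and without the second KO + LEENE library (0.0485).

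The promoters of these 3 genes are shown because each gene had its reads in a different group. They run from 250 bases before to 50 after the start site and were taken from RefSeq on GRCm38.p6, where 8 of the 10 genes matched. Capitals mark the TATA box (TATAAA), the E-box bound by myogenic factors such as MyoD (CANNTG), the MEF2 element and the CArG box bound by serum response factor, each on either strand.

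Acta1, chr8:123894726-123895025, minus strand: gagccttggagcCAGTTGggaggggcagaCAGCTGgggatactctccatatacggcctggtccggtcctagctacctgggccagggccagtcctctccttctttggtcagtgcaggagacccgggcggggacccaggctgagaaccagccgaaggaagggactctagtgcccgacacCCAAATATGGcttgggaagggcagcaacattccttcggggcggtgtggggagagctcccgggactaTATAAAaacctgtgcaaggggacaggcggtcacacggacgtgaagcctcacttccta
Myh1, chr11:67199852-67200151, plus strand: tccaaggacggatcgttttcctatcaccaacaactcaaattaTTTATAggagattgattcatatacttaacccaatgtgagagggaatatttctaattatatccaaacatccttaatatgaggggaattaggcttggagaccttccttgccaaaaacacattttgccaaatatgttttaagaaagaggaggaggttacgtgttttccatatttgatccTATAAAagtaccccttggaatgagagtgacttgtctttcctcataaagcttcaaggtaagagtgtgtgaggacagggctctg
Myh4, chr11:67237562-67237861, plus strand: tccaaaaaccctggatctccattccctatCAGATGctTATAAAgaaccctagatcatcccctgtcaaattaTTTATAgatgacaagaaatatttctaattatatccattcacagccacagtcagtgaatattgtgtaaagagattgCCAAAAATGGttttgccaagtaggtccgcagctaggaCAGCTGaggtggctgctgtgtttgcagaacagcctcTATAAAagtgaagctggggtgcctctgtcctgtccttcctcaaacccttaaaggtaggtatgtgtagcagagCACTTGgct

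The Acta1 window held 1 TATA box, 2 E-boxes and 1 CArG box, the Myh4 window 3 TATA boxes, 3 E-boxes and 1 CArG box, and the Myh1 window 2 TATA boxes and 0 E-boxes. Among 32544 promoters of the same length, 13.6% held a TATA box, 72.3% an E-box, 1.64% a CArG box and 0.559% a MEF2 element, which of the 8 genes matched was found in Ttn. No motif here overlapped another, and a match describes the letters and no binding.

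The troponin subunits of fast fibers were not detectable beyond a few reads. Tnnt3 (ENSMUSG00000061723, chromosome 7, 142498836 to 142516009, plus strand), the tropomyosin-binding subunit, had 3 and 1 reads in the WT + GFP libraries and 0 in the other 4. Tnni2 (ENSMUSG00000031097, chromosome 7, 142441808 to 142444410, plus strand), the inhibitory subunit, had 1 read, in the second WT + GFP library. Neither gene overlaps another gene, and no 50-base window of either was shared. A count of 0 allows up to 0.535 CPM in the deepest library and 1.69 CPM in the shallowest. Tnnc2 (ENSMUSG00000017300), the calcium-binding subunit, had 0 reads in all 6 libraries. It lies on chromosome 2 at 164777161 to 164779967 (minus strand), and 74.0% of its exonic bases and 94.2% of its last 500 lie in exons of Ube2c, so reads there were left unassigned and the 0 bears little on its level. None of the 3 was tested.

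The fast light chains and creatine kinase were likewise low. Mylpf (ENSMUSG00000030672, chromosome 7, 127208890 to 127214298, plus strand), the regulatory light chain, had 1 and 1 reads in the WT + GFP libraries, 0 and 0 in the KO + GFP libraries and 1 and 2 in the KO + LEENE libraries. Of its 50-base windows 22.5% were shared with other genes, and 35.7% in its last 500 bases, chiefly with Septin1. In the annotation used for counting, Mylpf overlaps no other gene. Myl1 (ENSMUSG00000061816, chromosome 1, 66924295 to 66945404, minus strand), the essential light chain, had 1 and 2 (WT + GFP), 4 and 2 (KO + GFP) and 3 and 2 reads (KO + LEENE). Its counts overlapped in all 3 groups, and 21.4% of its 50-base windows were shared with others (20% in the last 500 bases), chiefly Mylf-ps. Ckm (ENSMUSG00000030399, chromosome 7, 19404776 to 19422841, plus strand), muscle creatine kinase, had 1 read in the first WT + GFP library and 0 in the other 5. No direction can be read for these genes at this depth. In all 3 groups a heavy chain or an actin was above the floor in both libraries, while Tnnt3, Tnni2, Mylpf and Ckm were at or under it.

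Ttn encodes titin, the giant spring protein of fast, slow and cardiac sarcomeres, and its 345 exonic blocks add up to 116.825 kb. Ttn (ENSMUSG00000051747, chromosome 2, 76703980 to 76982547, minus strand) had 29 and 31 reads in the WT + GFP libraries, 53 and 33 in the KO + GFP libraries and 58 and 63 in the KO + LEENE libraries. In CPM the group means were 6.95, 9.28 and 34, without overlap between groups. Relative to WT + GFP, the log2 fold change of KO + GFP was 0.91 ± 0.271 (SE, adjusted P = 0.00138, edgeR) and that of KO + LEENE 1.62 ± 0.250 (adjusted P = 3.74e-10, edgeR). Between KO + LEENE and KO + GFP it was 0.71 ± 0.233 (adjusted P = 0.00391, edgeR). With library size only, the difference of KO + GFP from WT + GFP was 0.42 and lost its call (adjusted P = 0.154, edgeR), while that of KO + LEENE from KO + GFP was 1.87 (adjusted P = 3.67e-15, edgeR) and that of KO + LEENE from WT + GFP 2.29. With DESeq2 the KO + GFP difference from WT + GFP was 0.83 (adjusted P = 0.0903) and the KO + LEENE difference from KO + GFP 0.83 (adjusted P = 0.0758), both without a call at about the same size, while KO + LEENE against WT + GFP kept its call (1.66, adjusted P = 0.000124).

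Ttn was also set beside genes of odorant and vomeronasal receptors. By counts it stood above most of them, with 29 to 63 reads per library where 1428 of 1450 odorant and vomeronasal receptor genes had at most 20 in any library. The values per length below are a description only, because reads of a 3′ kit need not scale with exon length and the division by 116.825 kb lowers Ttn. The 1450 receptor genes, a comparison chosen after the values were seen, gave 0.237 and 0.243 RPKM (CPM per kb of exon) in the WT + GFP libraries, 0.101 and 0.100 in the KO + GFP libraries and 0.143 and 0.153 in the KO + LEENE libraries, summed over all of them. Restricted to those 1428, the values were 0.0568 and 0.0610, 0.0423 and 0.0421, and 0.0600 and 0.0724. Ttn had 0.0547 and 0.0643 RPKM in WT + GFP, close to the low receptor genes there, 0.0810 and 0.0779 RPKM in the KO + GFP libraries, and 0.280 and 0.301 RPKM in the KO + LEENE libraries, where it was above both receptor values.

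**Figure D4:**
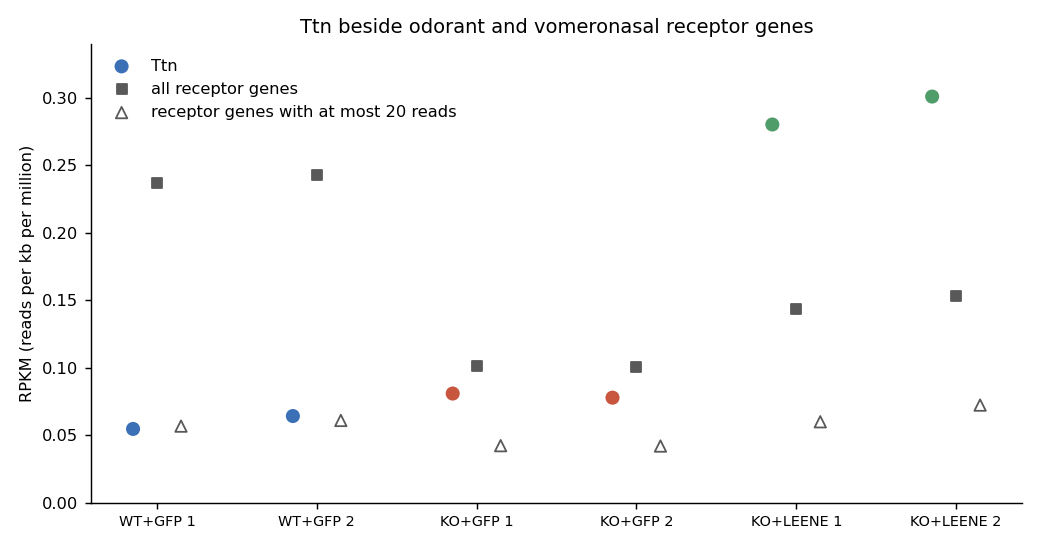
The level of Ttn per exon length (circles, RPKM), a scale that lowers long genes if reads lie near the transcript end, is plotted in each library beside all odorant and vomeronasal receptor genes (squares) and those with at most 20 reads (triangles). Ttn lies at the triangles in WT + GFP (0.0547 and 0.0643 RPKM), between both markers in KO + GFP, and above both in KO + LEENE (0.280 and 0.301 RPKM).

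On the same per-length scale Acta1 reached 20.9 and 16.8 RPKM in KO + LEENE, Myh4 3.03 and 2.98 in KO + GFP, and Myh1 0.833 and 0.343 in WT + GFP. In CPM, which is not divided by length, the group means were 27.0 for Acta1, 18.1 for Myh4 and 3.74 for Myh1, so the order was the same but the gaps between the genes depended on the division. More than 20 reads in some library were reached by 4 of the 10 fast fiber genes, by 15% of all genes and by 22 receptor genes (1.52%). Some of those receptor genes were high in 1 group too. Vmn2r13 had 279 and 241 reads in the WT + GFP libraries and 0 in the other 4, and Or9g20 had 226 and 155 reads in KO + GFP and 0 in the others. Both were chosen after their values were seen.

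The other genes of the contractile apparatus were also examined. Of 35 further fast fiber and sarcomere genes, 14 had at most 3 reads everywhere and 10 were tested. Compared with WT + GFP, 5 were higher and 2 lower in KO + GFP, in KO + LEENE against KO + GFP 1 was higher and 5 lower, and in KO + LEENE against WT + GFP 1 was higher and 3 lower, beside 70.1%, 67.8% and 70.7% of all tested genes called in either direction. The median log2 fold change of those tested was 1.39, -2.06 and -0.26, or 1.08, -0.84 and -0.61 with genes at the floor set to their bound or, where both groups were at it, left out. Actn2 and Pvalb passed the filter through KO + GFP alone, Lmod2 through WT + GFP alone and Trdn through KO + LEENE alone. They had to differ between groups once they had passed, so these counts and medians are a description only. Of the 14 genes above the floor in both libraries of some group, 57.1% were so in 1 group only, beside 46% of all such genes.

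The most abundant were Tpm1 and Tpm2, tropomyosins that are also made outside skeletal muscle. Tpm1 had 3122 and 2866 reads in the WT + GFP libraries, 23431 and 15031 in the KO + GFP libraries and 1685 and 1687 in the KO + LEENE libraries. The KO + GFP level exceeded WT + GFP by 3.07 ± 0.111 (SE) on the log2 scale (adjusted P = 4.77e-128, edgeR). Tpm2 had 175 and 158, 313 and 221, and 129 and 128 reads, and was also highest in KO + GFP in the TMM fit (1.08 ± 0.121 against WT + GFP, adjusted P = 8.93e-18, edgeR), whereas in CPM KO + LEENE was highest. Neb, the nebulin ruler of the thin filament, had 13 and 9, 167 and 132, and 1 and 1 reads, so both KO + GFP libraries were high and the rest low. Ryr1, the calcium release channel of skeletal muscle, had 211 and 245 reads in WT + GFP against 5 to 10 in the other 4 libraries (log2 fold change from WT + GFP to KO + GFP -4.51 ± 0.264, adjusted P = 8.96e-58, edgeR). Lmod2, a leiomodin that elongates thin filaments, had 61 and 65 reads in the WT + GFP libraries, 2 and 1 in the KO + GFP libraries and 0 in the last group. Outside the rule for named genes, Pvalb, the calcium buffer of fast fibers, had 74 and 52 reads in KO + GFP and 0 or 1 elsewhere, and Myh2, the heavy chain of type IIa fibers, had 1 read in all. Of the last 500 exonic bases of Myh2, 47.4% lie in 9430073C21Rik, and reads over both genes were not assigned.

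**Figure D5:**
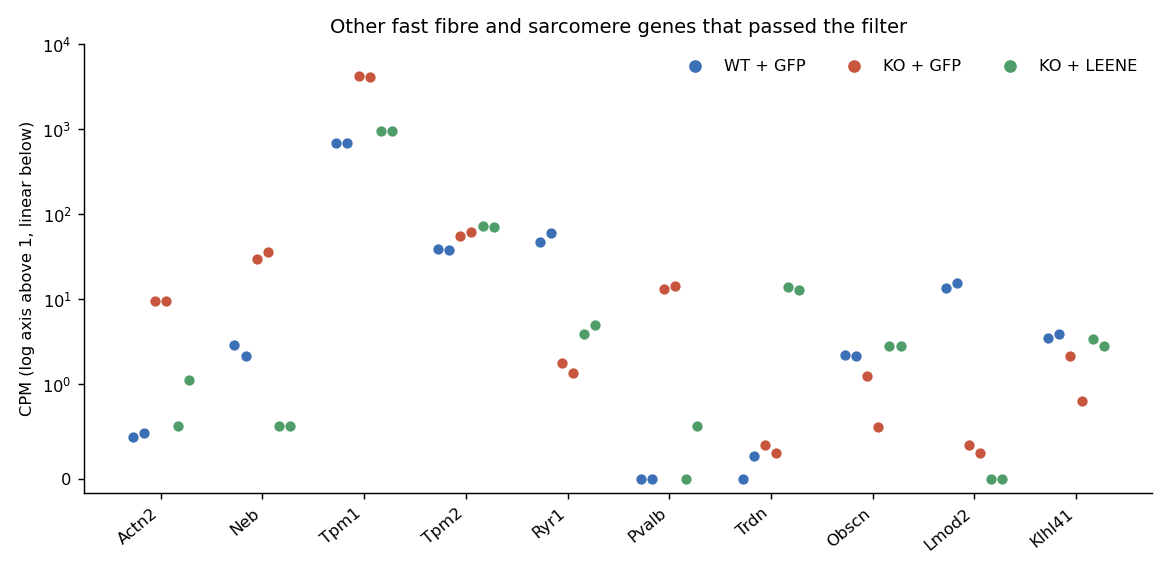
The 10 tested genes among the other fast fiber and sarcomere genes are plotted in CPM for each library (blue, WT + GFP; red, KO + GFP; green, KO + LEENE), on an axis that is logarithmic above 1 and linear below. Ryr1 and Lmod2 are highest in WT + GFP, Actn2, Neb, Tpm1 and Pvalb in KO + GFP, and Trdn in KO + LEENE (25 and 23 reads).

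Of 10 slow fiber genes, 7 had at most 3 reads everywhere (70%, near the 68.4% of all genes) and 1 was tested, Tpm3, a slow tropomyosin that nonmuscle cells also make. Tpm3 had 52 and 52 reads in the WT + GFP libraries, 98 and 54 in the KO + GFP libraries and 8 and 9 in the KO + LEENE libraries. It was higher in KO + GFP (log2 fold change 0.94 ± 0.212, adjusted P = 2.14e-05, edgeR) and lower in KO + LEENE (-1.99 ± 0.361, adjusted P = 1.08e-07) than in WT + GFP. Without Tpm3 little of this list was seen, with 1 to 6 reads of Atp2a2, a calcium pump, 0 to 2 of Tnni1, 0 to 4 of Myl2, 0 to 3 of Myoz2 and 0 to 3 of Myh7, the slow heavy chain.

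Among 12 genes of developing or regenerating muscle, 3 were tested, of which 2 were higher and 1 lower in KO + GFP against WT + GFP, 1 was higher in KO + LEENE against KO + GFP, and 2 were higher and 1 lower in KO + LEENE against WT + GFP (background 70.1%, 67.8% and 70.7%). Ncam1, a cell adhesion molecule, had 48 and 48, 71 and 54, and 46 and 53 reads. Myl4, the embryonic and atrial light chain, had 98 and 89 reads in WT + GFP and 2 to 4 elsewhere, and Tnnt2, the cardiac and embryonic troponin T, had 32 and 36 reads in KO + LEENE and 3 to 9 elsewhere. Both isoforms were high in a single group and passed the filter through it alone, so their calls are a description only. Myh8 had 1 to 6 and Myh3 0 to 3 reads, and Myog, a factor that drives myoblast fusion, had 0 or 1 reads.

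Of 8 satellite cell genes (the stem cells of muscle), 5 were tested. The KO + GFP libraries had 1 higher and 1 lower than WT + GFP, and KO + LEENE had 3 higher and 1 lower against either group, beside 70.1% (KO + GFP against WT + GFP), 67.8% (KO + LEENE against KO + GFP) and 70.7% (KO + LEENE against WT + GFP) of all genes. Vcam1, also made by activated endothelium, had 1194 and 991, 1120 and 707, and 951 and 1000 reads, and was slightly higher in KO + LEENE than in WT + GFP (log2 fold change 0.45 ± 0.0860, adjusted P = 3.34e-07, edgeR). Calcr, the calcitonin receptor of quiescent satellite cells, had 29 and 39 reads in KO + LEENE and 0 in the other 4 libraries, and Myf5, a myogenic factor, had 25 and 12 reads in KO + GFP, 8 and 7 in KO + LEENE, and 1 and 2 in WT + GFP. Sdc4 had 21 and 24 reads in WT + GFP and 0 to 5 elsewhere, and Pax7, the defining factor of these cells, had 1 to 7 reads. Calcr and Pax7 passed the filter through KO + LEENE alone, so the counts of calls in this list are a description only.

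Of 11 genes for enzymes of muscle glycolysis and ATP supply, 4 were tested. In KO + GFP against WT + GFP 1 was higher and 2 lower, in KO + LEENE against KO + GFP 2 were higher and 2 lower, and in KO + LEENE against WT + GFP 2 were higher and 1 lower, beside 70.1%, 67.8% and 70.7% of all genes called. Phkg1, a catalytic subunit of phosphorylase kinase, had 101 and 95 reads in the WT + GFP libraries. Its counts were 66 and 40 for KO + GFP, and KO + LEENE was higher than that with 107 and 143 (log2 fold change 1.45 ± 0.187, adjusted P = 4.68e-14, edgeR). All of its last 500 exonic bases lie in another gene, Sumf2. Aldoa, aldolase A, had 147 and 148 reads in KO + LEENE and 2 to 8 elsewhere, and passed the filter through KO + LEENE alone. Ak1, an adenylate kinase, had 1 to 13 reads. Eno3, the muscle enolase, had 24 and 16 reads in KO + GFP and 0 or 1 elsewhere, and passed the filter through KO + GFP alone. The calls of Aldoa and Eno3 are therefore a description only. Pfkm, muscle phosphofructokinase, fell from 85 and 73 reads in WT + GFP to 3 and 1 reads in KO + LEENE (lower by at least 17.2-fold, adjusted P = 1.96e-22, edgeR).

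The nonmuscle counterparts were more abundant and 10 of 11 were tested. Relative to WT + GFP, KO + GFP had 5 that were higher and 2 lower, in KO + LEENE against KO + GFP 7 were higher and 3 lower, and in KO + LEENE against WT + GFP 7 were higher and 2 lower, while 70.1%, 67.8% and 70.7% of all genes were called. Actb, the cytoplasmic beta-actin, had 537 and 504 reads in the WT + GFP libraries, 58995 and 38293 in the KO + GFP libraries and 298 and 341 in the KO + LEENE libraries. Myl6, the light chain of nonmuscle and smooth muscle myosin, had 38 and 23, 16524 and 10333, and 54 and 39 reads, and thus followed Actb rather than Acta1. Actn4 was highest in KO + LEENE (921 and 901 reads, against 24 to 303) and Actn1 in WT + GFP (2170 and 1987 reads, against 31 to 60), both of them alpha-actinins that crosslink actin. Myh9, a nonmuscle heavy chain, had 127 and 85, 65 and 47, and 149 and 145 reads.

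Marker lists of the other cell types in muscle moved between the groups as well. The 16 endothelial genes, of which 13 were tested, summed to 945 to 964 CPM in WT + GFP, 2934 to 3092 in KO + GFP and 347 to 354 in KO + LEENE. Their calls went both ways, with 4 higher and 5 lower in KO + GFP against WT + GFP, 3 higher and 8 lower in KO + LEENE against KO + GFP, and 3 higher and 5 lower in KO + LEENE against WT + GFP, beside 70.1%, 67.8% and 70.7% of all genes called. The KO + GFP sum rested on Emcn (12245 and 8648 reads, against 7 to 14 elsewhere). Without it, a sum chosen after the values were seen, the means were 952 CPM for WT + GFP, 727 for KO + GFP and 346 for KO + LEENE, and with TMM scaling 995, 1062 and 227 CPM, so the order of WT + GFP and KO + GFP depended on the scaling. Some markers were highest in KO + LEENE, with Vwf at 15.4, 26.8 and 184 CPM and Egfl7 at 1.93, 2.21 and 9.82 CPM in WT + GFP, KO + GFP and KO + LEENE. The 12 macrophage genes summed to 69 to 82.6 CPM in WT + GFP, 813 to 847 in KO + GFP and 17.3 to 23.7 in KO + LEENE, with Cd68 at 0 in 5 of the 6 libraries. The 9 fibroblast genes ranged from 63.5 to 71.2, 15849 to 15943 and 123 to 125 CPM, the 8 smooth muscle genes from 6.62 to 6.79, 102 to 113 and 29.9 to 31.3 CPM, and the 6 red cell genes from 2575 to 2663, 1228 to 1272 and 866 to 910 CPM, in the same order. The fibroblast sum in KO + GFP was led by Dcn (63633 and 40842 reads, against 42 to 62), and without Dcn it was 54.0, 4584 and 99.7 CPM on average. Without Mylk, its most abundant gene, the smooth muscle sum was 4.73, 23.7 and 28.1 CPM on average, and 4.94, 34.7 and 18.4 with TMM scaling. The order of KO + GFP and KO + LEENE then depended on the scaling. Defining markers were at or near 0 in these lists too, with Acta2 at 0 to 6 reads and Lum at 0 or 1. The part of these shifts in the values of the fast fiber genes was not tested.

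Among 2821 genes with a mean of at least 20 CPM, those whose profile over the 6 libraries was nearest to the summed fast fiber genes were Smad3, Tmem87a, Uaca, Psmd14 and Gm43652. The root mean square difference of their centered log2 CPM from that of the sum was 0.0671 for Smad3 to 0.149 for Gm43652. The genes nearest to Acta1 were Tut4, Dnajc8, Cnbp, Col4a2 and Kif1b, with differences of 0.241 to 0.287. Dnajc8, for example, had 42 and 32, 69 and 43, and 411 and 431 reads. All points share the same 6 libraries and their depths, so the likeness describes these libraries only.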

How the data were processed

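RNA-seq was performed on CD144-enriched cells with a 3′ gene expression kit whose droplet step was omitted. Per the submitters' processing notes, bcl2fastq 2.18 and STAR 2.5.4b were used, and per the file headers the authors counted uniquely aligned reads over exons with featureCounts 2.0.0 (Ensembl release 84, GRCm38), ignoring strand and dropping reads that fall in more than 1 gene. The study's methods also name mm9 and TPM. The deposited values are read counts, with no collapsing of duplicate molecules named. Gene names came from a later annotation by identifier (43465 of 47729 matched), so coordinates are those of the files.

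Counts were tested with edgeR 4.0.16 (R 4.3.3): quasi-likelihood F test on all 6 libraries, TMM, filterByExpr (minimum count 10, minimum total 15, which here was 2.58 CPM in 2 libraries), Benjamini-Hochberg over 8903 genes, adjusted P under 0.05. SE was the log2 fold change divided by the square root of F. Where each library of a group had 3 reads or fewer, the fold is a lower bound computed on TMM-scaled totals, and a fitted value printed there is named as fitted. The bound takes no account of counting error in the other group. RPKM is the CPM divided by the exonic kb. Shared windows, coding bases and promoter motifs were read from the reference transcripts and RefSeq promoters.

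The rule for the members uses no measured value, but it and the gene lists were chosen with earlier results of these data known. All 10 members are named. Of the other muscle lists, up to 5 genes with the highest mean CPM are named, plus the genes nearest in pattern. Other genes are examples chosen after their values were seen. On simulated counts for KO + GFP against WT + GFP (7851 genes tested), 79.2% of 183 changed genes were recovered, with 3 false calls. This is a far smaller share of changed genes than the 70.1% called in the data for this contrast. The rates of the simulation therefore need not hold here. Alternatives were other size factors, library size only, no mitochondrial genes, DESeq2 1.42.0, other filters, thinning, the 4 libraries compared, the replicate number as a block, and leaving out each library.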

Additional observations from a re-analysis of the deposited data

How the results depend on the processing

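Calls of Acta1 and Myh4 say little of stability, since each passed the filter through its high group alone. On all 30969 genes with a read, DESeq2 called 1 of the fast fiber genes in KO + GFP against WT + GFP and 5132 of all genes, while edgeR on those genes called 3 and 7478. In addition, a minimum of 10 reads in every sample left only Ttn to test, with 1 called in each contrast. Leaving out each library gave 2 to 4 called in KO + GFP against WT + GFP, 3 in KO + LEENE against KO + GFP, and 2 to 3 in KO + LEENE against WT + GFP. For Myh1 in KO + LEENE against KO + GFP, not called in the main fit, the fitted log2 fold change with library size only was 2.26 (adjusted P = 0.0360, edgeR). With a library left out, it ran from -0.287 without the second KO + LEENE library to 1.91 without the first. At -0.287 both groups were at the floor, so no direction can be read. In that fit and others without a library, the lone sample of its group is assumed to vary like the other groups. The summed level was 25.8, 44.5 and 98.2 CPM in WT + GFP, KO + GFP and KO + LEENE without mitochondrial genes, 38.0, 61.6 and 153 without the 20 most abundant genes, and 42.9 and 43.2 in KO + GFP and KO + LEENE with TMM scaling, an alternative chosen after seeing the data. Without Acta1 it was 28.3 in KO + GFP and 38.2 CPM for KO + LEENE. Per library the sum ran from 11.9 to 13.7, 28.7 to 29.8 and 64.2 to 66.1. The causes were not tested beyond what each alternative leaves out. Library size only moved the median of all genes from -0.09 to -0.57, from -0.01 to 1.07 and from -0.11 to 0.50. With the replicate number as a block, 3 were called in each contrast. The numbers did not pair the samples, whose deviations correlated by 0.0138 to 0.0306. Depth limits Tnnt3, Tnni2, Mylpf and Ckm, at or under 3 reads, for which no direction can be given, and Tnnc2 is limited by its overlap with Ube2c.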

Other observations

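Smooth muscle genes, which share actin and myosin relatives with the fast fiber genes, were tested for 4 of 8 members. In KO + GFP against WT + GFP 2 were higher, in KO + LEENE against KO + GFP 2 were higher and 2 lower, and in KO + LEENE against WT + GFP 2 were higher, beside 70.1%, 67.8% and 70.7% of all genes called. Mylk, the myosin light chain kinase, had 485 and 292 reads in KO + GFP and 4 to 9 elsewhere, and passed the filter through the KO + GFP libraries and 1 of KO + LEENE. Smtn, smoothelin, had 144 and 73 reads in KO + GFP, 26 and 28 in KO + LEENE, and 3 and 5 in WT + GFP. Myh11, the smooth muscle heavy chain, had 9 and 13 reads in KO + LEENE and 1 to 4 elsewhere, and passed the filter through KO + LEENE alone. Tagln and Cnn1, abundant in contractile smooth muscle, had at most 3 reads in any library.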
